A study of Homo sapiens with 12 samples.

Results

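Aminoacyl-tRNA synthetases are the enzymes that join each amino acid to its transfer RNA, the step that fixes the meaning of every codon before a ribosome reads it. Human cells keep a set for the cytosol and a set, also encoded in the nucleus, for the mitochondria, whose own ribosomes make core subunits of the respiratory chain. Several cytosolic enzymes sit in a common multisynthetase complex on the scaffold proteins AIMP1, AIMP2 and EEF1E1, and the genes of many cytosolic forms are textbook targets of ATF4, the factor that is made when amino acids run short. The 37 genes described here were taken from the protein-coding genes of the deposited expression table by their symbols: 20 symbols of cytosolic forms and 17 symbols ending in 2, the mitochondrial forms, among 19847 protein-coding genes and 58302 genes in all. GARS (glycine) and KARS (lysine) each make both forms from 1 gene and were counted as cytosolic. Glutamine has no mitochondrial form among these genes. The rule used symbols and no measured value, but the family was chosen with earlier results of these data known.

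The study set 2 hairpins against each other in DLD1, an established line of human colorectal cancer epithelial cells, here at passage 5. The shNC cells carried a control hairpin. The shNAT10 cells carried a hairpin against NAT10, the enzyme that writes N4-acetylcytidine (ac4C) on RNA. From each, 3 replicates gave an input library and an ac4C immunoprecipitate (12 libraries in 4 groups), from 100 µg of total RNA broken into pieces of 100 to 200 nt. No drug or other treatment was named for either group, and the sources used here do not say how many hairpin sequences or clones were used or whether replicates were separate cultures. The p-values below therefore measure the spread between these samples, which may be technical.

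Levels are in FPKM, a count of fragments divided by the length of the gene and the size of the library, for the 6 input libraries only. A level per length can be set between genes. The immunoprecipitates were not analysed here library by library. The fragments on genes, recovered from the FPKM values, numbered 2636858 to 2758231 in the shNC libraries and 1224106 to 1303826 in the libraries labelled shNAT10, so depth differed between the groups. The targeted gene went against the label: NAT10 stood at 1.24, 3.95 and 2.89 FPKM in shNC and at 0, 28.1 and 31.4 FPKM in the libraries labelled shNAT10. Its log2 difference was 1.48 (SE 1.86), with an adjusted p of 0.754 in limma, a test on the log scale. Of 12 epithelial markers, 11 were above 0 in some library, and their summed level was 5236 to 5386 FPKM in shNC and 8291 to 8656 FPKM in the libraries labelled shNAT10. Keratin 8 (KRT8) made up most of that sum, and 8 of the 12 were above 0 in all 6 libraries. Single markers went both ways: 6 of 10 tested were higher and 4 lower, and EPCAM, an epithelial adhesion protein, was at 226, 370 and 262 FPKM in shNC and at 38.3, 80.3 and 128 FPKM in the other group. The log2 difference of EPCAM was -1.92 (SE 0.98, limma adjusted p 0.754). The sum of 6 leukocyte markers was 0 in shNC and reached 2.29 FPKM in the other group, with CD3E, LYZ and CD68 at 0 throughout. That of 8 fibroblast and endothelial markers reached 0.130 and 6.97 FPKM, with PECAM1 and CDH5 at 0 throughout. The 6.97 FPKM was that of shNAT10 replicate 3, led by DCN (3.18 FPKM) and LUM (2.22 FPKM), while all 8 were at 0 in shNAT10 replicate 1. Replicate 3 also had 8117 genes above 0, beside 6348 and 6435 in shNAT10 replicates 1 and 2. The part of depth and of these markers in the results below was not tested. In bulk RNA, fewer cells of a kind and less RNA per cell cannot be told apart.

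Replicates of these libraries often parted ways at single genes. Of 6155 protein-coding genes that reached 100 fragments in any shNC sample, 2675 (43.5%) had 0 in a sister replicate, and for the libraries labelled shNAT10 it was 1949 of 4008 (48.6%). Such gaps were found in 6 of 27 synthetases (22.2%) in shNC and 7 of 23 (30.4%) in the libraries labelled shNAT10. In shNC, 3 of the 20 cytosolic genes and 3 of 7 mitochondrial genes that reached 100 fragments were at 0 in another replicate, and in the libraries labelled shNAT10 it was 4 of 18 and 3 of 5. MARS, the methionine enzyme, had 0 fragments in shNAT10 replicate 1 and 417 in replicate 2. RARS2, the mitochondrial arginine enzyme, had 0, 114 and 305 fragments in the shNC replicates. Over the 37 genes, Spearman's rho between replicates of a group ranged from 0.21 to 0.60 and that between libraries of different groups from 0.21 to 0.67, given as a description of libraries that share their gene lengths. Over the 20 cytosolic genes alone, rho ranged from -0.02 to 0.47 between replicates and from -0.23 to 0.48 between groups. The order of cytosolic genes by level was thus weakly shared between replicates.

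As a class, cytosolic synthetases stood above mitochondrial ones in each of the 6 input libraries. The median cytosolic gene stood at 18.9, 18.2 and 27.3 FPKM in shNC and at 13.4, 20.5 and 4.88 FPKM in the libraries labelled shNAT10. The median mitochondrial gene stood at 0, 0.0721 and 0.152 FPKM in shNC and at 0 in each library labelled shNAT10. As log2(FPKM + 1), the cytosolic median exceeded the mitochondrial one by 3.97 ± 0.765 (SD, n = 6 libraries), with the smallest gap, 2.504, in shNAT10 replicate 3. With the mitochondrial median at or near 0, the size and spread of this gap mainly follow the cytosolic median and the added 1. Summed over genes, the cytosolic forms had 4.04 to 25.3 times the FPKM of the mitochondrial forms. The gap carries no p-value, since genes are not replicates.

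**Figure D1:**
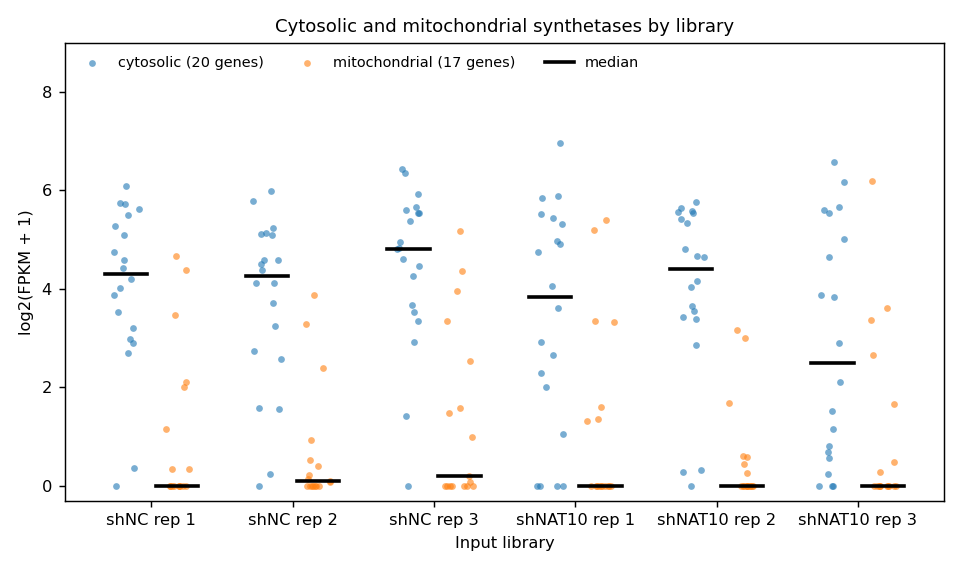
Level of each synthetase gene as log2(FPKM + 1) in the 6 input libraries; blue points are the 20 cytosolic genes, orange points the 17 mitochondrial genes, and black bars their medians. The cytosolic median lies above the mitochondrial median in 6 of 6 libraries, and the mitochondrial median is at or near 0.

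The classes overlapped at their edges. Mean levels over the 6 libraries ran from 5.92 FPKM (RARS) to 52.2 FPKM (GARS) among cytosolic genes, with a median of 23.3 FPKM, and from 0 to 12.1 FPKM (PARS2) among mitochondrial genes, with a median of 2.58 FPKM. The means of 3 cytosolic genes lay below that of PARS2, and those of 5 mitochondrial genes lay above that of RARS. Of the 120 cytosolic values 11 (9.17%) were 0, and of the 102 mitochondrial values 53 (52.0%) were 0. A level above 0 in all 6 libraries was found for 13 of 20 cytosolic genes and for 1 of 17 mitochondrial genes, CARS2. SARS2 and YARS2, the mitochondrial serine and tyrosine enzymes, were listed at 0 throughout. The cytosolic genes held 36649 fragments in all, with a median of 1807 per gene, and the mitochondrial genes 4048, with a median of 127. Among all 3905 coding genes with means in the range of the cytosolic ones, 25.0% of values were 0. A listed 0 gives no bound on a level here, since EEF1G, an elongation factor subunit that every cell uses, was also listed at 0 in all 6 libraries while its partner EEF1B2 had a mean of 88.7 FPKM.

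Set amino acid by amino acid, the cytosolic form was higher in 84 of 108 comparisons (77.8%; 18 pairs in 6 libraries), the mitochondrial form was higher in 18, and both were at 0 in 6. The enzymes for alanine, serine, threonine, tryptophan and tyrosine had the cytosolic form higher in 6 of 6 libraries, for serine and tyrosine against a mitochondrial form listed at 0 throughout, and 13 of 18 pairs had it higher in at least 5. TARS exceeded TARS2 by 5.23 ± 0.789 on the log2(FPKM + 1) scale and WARS exceeded WARS2 by 3.86 ± 0.431 (SD over 6 libraries). TARS2 was listed at 0 in 5 of 6 libraries (17 fragments in all) and WARS2 in 3 of 6 (13 fragments in all). Both gaps and their spread therefore mainly follow the levels of TARS and WARS. The arginine pair ran the other way. RARS stood at 8.21, 0 and 21.1 FPKM in shNC and at 0, 6.24 and 0 FPKM in the libraries labelled shNAT10, and RARS2 was higher in 3 libraries and lower in 1. For valine (VARS and VARS2) each form was higher in 3 libraries, and neither of these pairs differed beyond its spread. Nor did several pairs with the cytosolic form higher in 5 of 6 libraries. Among them were leucine (2.73 ± 3.56), cysteine (2.03 ± 2.97) and isoleucine (2.30 ± 2.51). The spread was smallest for the tryptophan and threonine pairs given above. EPRS, which carries the glutamate and proline activities in 1 protein, was higher than EARS2 and higher than PARS2 in 5 of 6 libraries each.

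**Figure D2:**
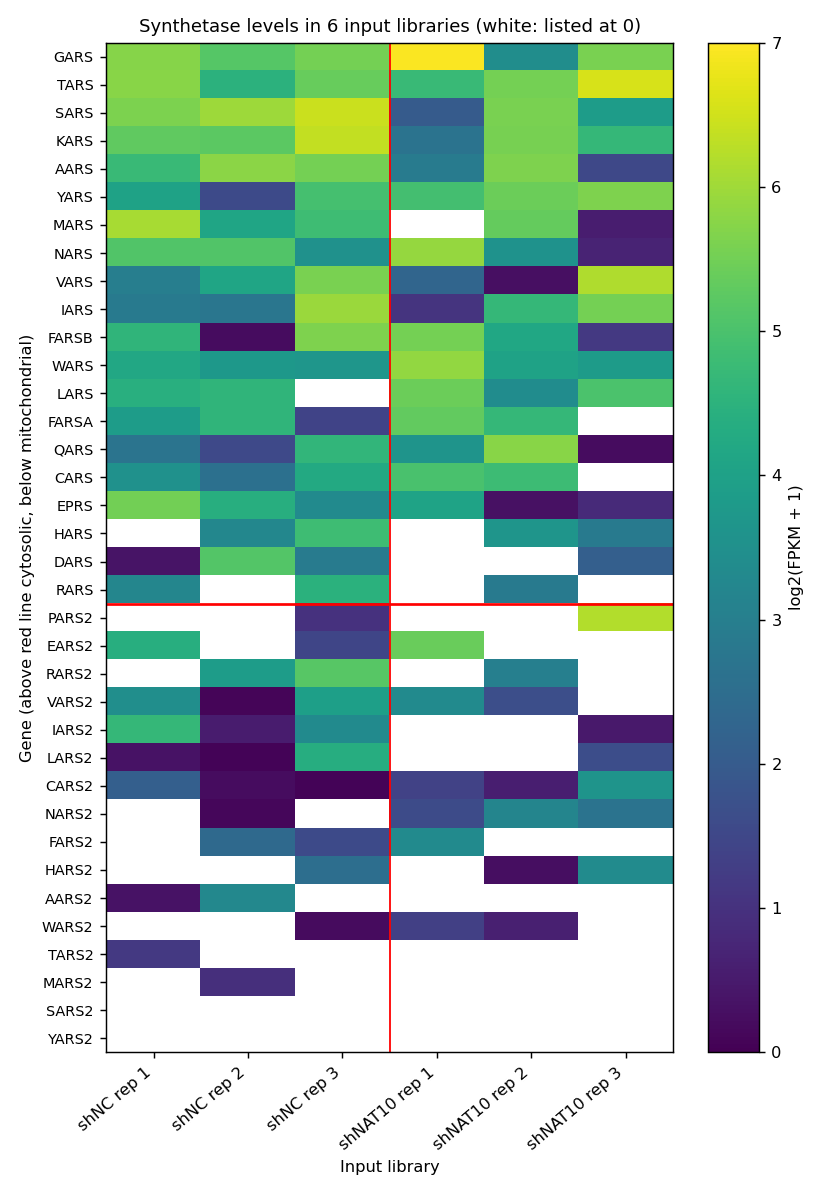
Level of 36 of the 37 synthetase genes as log2(FPKM + 1) (colour) in each input library (columns), ordered by mean FPKM within the cytosolic genes (above the red line) and the mitochondrial genes (below it); white cells are listed at 0. White cells make up 11 of 120 cytosolic values and 52 of 96 mitochondrial values shown, and bright and dark cells alternate within the replicates of 1 group.

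The 6 most abundant cytosolic genes were GARS, TARS, SARS, KARS, AARS and YARS. GARS, the glycine enzyme, was at 52.1, 34.4 and 45.8 FPKM in shNC and at 124, 9.81 and 47.5 FPKM in the libraries labelled shNAT10. TARS, the threonine enzyme, was at 52.9, 21.7 and 40.8 FPKM in shNC and at 25.8, 45.5 and 94.8 FPKM in the other group. Both genes had overlapping groups, and the shNC values lay inside the range of the other group for GARS. SARS, the serine enzyme, was at 48.2, 62.5 and 85.1 FPKM in shNC and at 3.00, 47.2 and 13.7 FPKM in the libraries labelled shNAT10. Its groups did not overlap, although shNAT10 replicate 2 lay close to the lowest shNC library. KARS, the lysine enzyme, was at 38.03, 36.6 and 80.8 FPKM in shNC and at 5.31, 46.0 and 24.2 FPKM in the other group. AARS, the alanine enzyme, was at 25.8, 54.6 and 45.9 FPKM in shNC and at 6.56, 49.3 and 1.86 FPKM in the libraries labelled shNAT10. In SARS, KARS and AARS alike, shNAT10 replicate 2 was the highest of its group. YARS, the tyrosine enzyme, was at 15.3, 2.002 and 29.9 FPKM in shNC and at 28.9, 41.9 and 49.4 FPKM in the other group, where only shNC replicate 3 reached into the range of the libraries labelled shNAT10. Neighbours in this order did not differ beyond their spread over libraries.

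The phenylalanine enzyme is built of subunits from separate genes, and their levels did not run together in shNC. FARSA, the alpha subunit, was at 13.7, 23.0 and 1.68 FPKM in shNC and at 38.7, 24.1 and 0 FPKM in the libraries labelled shNAT10. FARSB, the beta subunit, was at 23.0, 0.181 and 49.5 FPKM in shNC and at 45.1, 16.8 and 1.24 FPKM in the other group. FARSA was the higher of them in shNC replicate 2 and FARSB in shNC replicate 3, each by more than 10 FPKM. LARS, QARS and VARS, the leucine, glutamine and valine enzymes, also had overlapping groups: LARS ranged from 0 to 42.2 FPKM, QARS from 0.177 to 53.4 FPKM and VARS from 0.220 to 70.8 FPKM over the 6 libraries.

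The 3 most abundant mitochondrial genes owed their rank to a few libraries each. PARS2, the mitochondrial proline enzyme, was at 0, 0 and 0.995 FPKM in shNC and at 0, 0 and 71.8 FPKM in the libraries labelled shNAT10, so 202 of its 210 fragments came from shNAT10 replicate 3. EARS2, the mitochondrial glutamate enzyme, was at 19.9, 0 and 1.78 FPKM in shNC and at 41.1, 0 and 0 FPKM in the other group. RARS2 was at 0, 13.6 and 35.0 FPKM in shNC and at 0, 7.08 and 0 FPKM in the other group. In each of these 3 genes the 2 groups overlapped. Further down, 8 mitochondrial genes had means from 1.498 FPKM (AARS2) to 5.99 FPKM (VARS2). MARS2, SARS2, TARS2, WARS2 and YARS2 lay below the mean of 1 FPKM needed for the test.

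Promoters of the family were searched for sites of known regulators. RefSeq promoter windows (GRCh38.p14, 250 bases before to 50 after the start of transcription) were given for 30 of the 37 genes, 16 cytosolic and 14 mitochondrial, in 39 windows. The core of the amino acid response element, the composite site of ATF4 and C/EBP factors, was searched as TGATGNAA on both strands. It stood in 8 of the 39 windows (20.5%) and in 1270 of all 35116 windows (3.62%). It was found in 7 of 16 cytosolic genes and in 1 of 14 mitochondrial genes, YARS2. The matches are shown with their flanks because most of them lie in cytosolic genes. Each run reads 5′ to 3′ on the strand of its gene, and the capitals mark the match, which reads TTNCATCA where the element lies on the other strand.
AARS, chr16:70289675-70289704, minus strand: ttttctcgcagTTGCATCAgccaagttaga
CARS, chr11:3057407-3057436, minus strand: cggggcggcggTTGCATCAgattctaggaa
GARS, chr7:30594834-30594863, plus strand: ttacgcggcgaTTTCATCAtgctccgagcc
IARS, chr9:92293692-92293721, minus strand: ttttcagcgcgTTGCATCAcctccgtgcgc
MARS, chr12:57488053-57488082, plus strand: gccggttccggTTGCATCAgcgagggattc
NARS, chr18:57621804-57621833, minus strand: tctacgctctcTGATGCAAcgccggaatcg
TARS, chr5:33440956-33440985, plus strand: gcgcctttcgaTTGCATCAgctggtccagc
YARS2, chr12:32756076-32756105, minus strand: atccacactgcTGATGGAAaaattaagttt

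A match is a description of letters and says nothing on binding in DLD1. The 7 cytosolic genes with the match had mean levels of 15.2 to 52.2 FPKM (median 25.1), and the 9 without it 5.92 to 43.3 FPKM (median 16.9), which overlapped. YARS2 held a match and was listed at 0. The core shared by ETS factors and GABP, CCGGAAGT, was in 23.1% of the windows of these genes and 4.14% of all windows, in 5 cytosolic genes and 3 mitochondrial ones. HARS and HARS2, the cytosolic and mitochondrial histidine enzymes, lie 84 bases apart on opposite strands of chromosome 5 and share the same 2 matches, of which the one nearer to HARS is shown on the HARS strand.
HARS, chr5:140691361-140691390, minus strand: cgactcgatagCCGGAAGTcatccttgctg
HARS was at 0, 8.52 and 27.2 FPKM in shNC and HARS2 at 0, 0 and 4.80 FPKM. In the libraries labelled shNAT10 they were at 0, 11.6 and 6.43 FPKM and at 0, 0.196 and 9.31 FPKM. HARS2 had 95 fragments in all, and a link between the shared stretch and these levels was not tested. The core of NRF1, a factor tied to mitochondrial genes, was searched as GCATGCGC. It stood in 2 of the 39 windows of these genes (5.13%), beside 3.05% of all windows. By gene, it was in 0 cytosolic and 2 mitochondrial genes, MARS2 and YARS2, too few to set the classes apart.

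No synthetase passed the test between hairpins. The test was limma on log2(FPKM + 1) with Benjamini-Hochberg adjustment over all genes with a mean of at least 1 FPKM, called at an adjusted p under 0.05. It covered 20 cytosolic and 12 mitochondrial genes, of which 0 were called and 0 had an unadjusted p under 0.05, with adjusted p from limma between 0.754 and 0.997. Over all 10517 genes tested, 20 (0.190%) were called and 389 (3.70%) had an unadjusted p under 0.05. The standard errors of the 32 genes were 1.27 to 1.89 log2 units and the 95% intervals reached 2.51 to 3.73 log2 units to each side, so changes of several fold were not detectable at this spread. A missing call does not show equal levels.

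**Figure D3:**
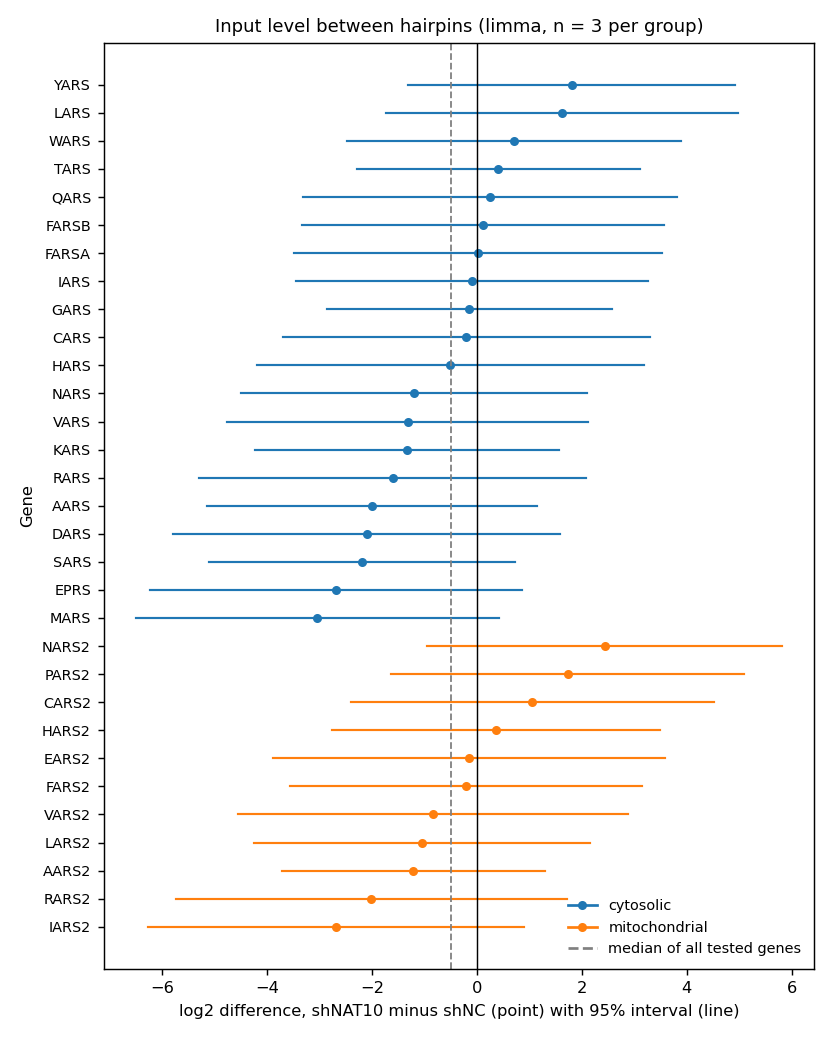
Log2 difference in log2(FPKM + 1) between the libraries labelled shNAT10 and the shNC libraries for 31 of the 32 tested synthetase genes (points) with its 95% interval from limma (lines), n = 3 libraries per group; the dashed line marks the median of all tested genes, -0.49. Every interval spans 0.

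By direction alone, 12 of the 32 were higher and 20 lower in the libraries labelled shNAT10, with a median log2 difference of -0.20. The median of all tested genes was -0.49, and 58.8% of them were lower. The cytosolic median was -0.35 (7 higher, 13 lower) and the mitochondrial median -0.18 (5 higher, 7 lower); quantile normalization moved the median of all genes to -0.08, the cytosolic one to -0.17 and the mitochondrial one to 0.19, which turned its sign. These medians do not set the classes apart from all genes. The cytosolic median ran from -0.996 without shNAT10 replicate 2 to -0.37 without shNC replicate 3, with -0.76, -0.79, -0.96 and -0.57 without shNC replicates 1 and 2 and shNAT10 replicates 1 and 3, and its gap to the median of all genes turned from 0.13 to as low as -0.40 (without shNC replicate 2). The 8 enzymes of the multisynthetase complex (EPRS, IARS, LARS, QARS, MARS, KARS, RARS and DARS) had a median of -1.47, with 2 higher and 6 lower, and the other 12 cytosolic genes had a median of -0.17, with 5 higher and 7 lower. The complex was singled out with these values at hand, and the difference between the 2 subsets was not tested. Among cytosolic genes with a promoter window, the median was -0.20 for the 7 with the amino acid response core (1 higher, 6 lower) and -0.51 for the 9 without (4 higher, 5 lower), so medians and counts ran opposite ways.

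The lowest p of the family belonged to MARS. It was at 66.8, 16.3 and 27.4 FPKM in shNC and at 0, 39.6 and 0.475 FPKM in the libraries labelled shNAT10. Its log2 difference was -3.04 (SE 1.75; limma adjusted p 0.754, unadjusted 0.0844). The high value in shNAT10 replicate 2 lay inside the shNC range. EPRS was at 44.6, 19.9 and 9.16 FPKM in shNC and at 15.6, 0.245 and 0.766 FPKM in the other group, a log2 difference of -2.68 (SE 1.80), with replicate 1 inside the shNC range.

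In 3 genes the groups did not overlap. NARS2, the mitochondrial asparagine enzyme, was the only tested member with all libraries labelled shNAT10 above all shNC libraries, against 2.89% of all genes tested. It was at 0, 0.0966 and 0 FPKM in shNC, a single fragment in all, and at 2.05, 8.04 and 5.30 FPKM (9, 38 and 20 fragments) in the libraries labelled shNAT10, which were the shallower ones. The log2 difference was 2.44 (SE 1.71), short of the test. SARS and IARS2 lay lower in every library labelled shNAT10, against 6.72% of all genes tested. SARS had a log2 difference of -2.19 (SE 1.48, 95% interval -5.11 to 0.73). IARS2, the mitochondrial isoleucine enzyme, was at 24.4, 0.439 and 9.25 FPKM in shNC and at 0, 0 and 0.401 FPKM in the other group, a log2 difference of -2.69 (SE 1.82). Its gap between the groups was narrow, 0.439 against 0.401 FPKM, or 6 fragments against 2.

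The log2 differences of the other abundant genes were -2.003 for AARS, -1.34 for KARS, -0.14 for GARS, 0.41 for TARS and 1.81 for YARS, each with a standard error of 1.37 to 1.59. With 1 library left out, AARS ran from -3.15 (without shNAT10 replicate 2) to -1.08 (without shNAT10 replicate 3), KARS from -1.97 (without shNAT10 replicate 2) to -0.52 (without shNAT10 replicate 1), and YARS from 0.84 (without shNC replicate 2) to 2.52 (without shNC replicate 3). Those of RARS2, PARS2 and EARS2 were -2.01, 1.73 and -0.15, with intervals that spanned 0.

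The authors' deposited table of differential ac4C peaks listed 19 peaks in 14 of the 37 genes. The authors gave each peak a fold enrichment and a log2 change between the hairpins, but which hairpin stood in the numerator was not stated, so a sign below has no known direction. All values of peaks here are the authors' own, on GRCh38. Peaks stood in 11 of 20 cytosolic genes (15 peaks) and in 3 of 17 mitochondrial genes (4 peaks). Of the 32 tested genes, 14 (43.8%) had a peak, beside 19.0% of the 8140 protein-coding genes with a mean of at least 1 FPKM. A peak can be called only where there are reads. Of genes at 20 FPKM or more, 8 of 13 synthetases (61.5%) and 28.3% of coding genes had a peak; at 5 to 20 FPKM it was 4 of 13 (30.8%) and 20.8%; and at 1 to 5 FPKM it was 2 of 6 (33.3%) and 13.1%. These shares were not tested against each other.

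**Figure D4:**
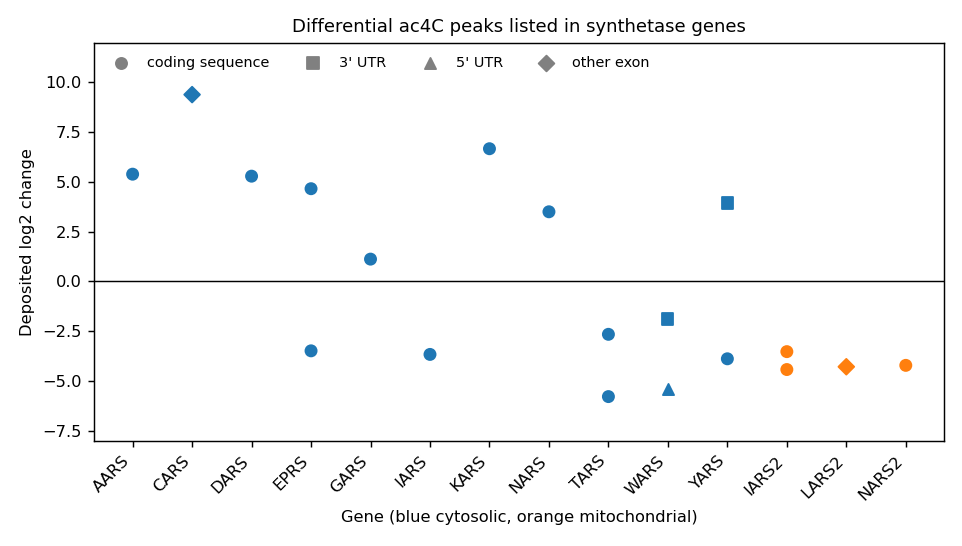
Deposited log2 change of the 19 differential ac4C peaks listed in 14 synthetase genes, by gene; blue marks are cytosolic genes, orange marks mitochondrial ones, and the shape gives the authors' annotation of the peak. All 4 mitochondrial peaks, from 3 genes, are negative, and the 15 cytosolic peaks split into 7 negative and 8 positive. Of all deposited peaks 61.7% are negative, and the numerator of the change was not stated.

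Most peaks lay in coding sequence. The authors annotated 14 of the 19 (73.7%) to coding sequence, 2 to the 3′ UTR, 1 to the 5′ UTR and 2 to other exons, beside 59.5% in coding sequence among all 2364 deposited peaks. Of the 19, 16 (84.2%) were joined from more than 1 exon block, beside 50.6% of all peaks. A site of the authors' repeated motif, a C followed by any 2 bases 4 times over, was listed in 8 of the 19 (42.1%), beside 62.6% of all, or 2.25 against 5.62 sites per 1000 nt of peak. Fold enrichment ran from 3.27 to 33.5 with a median of 9.74, near the 10.5 of all peaks. In sign, 11 of 19 (57.9%) were negative, beside 61.7% of all.

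The cytosolic peaks differed in sign from gene to gene. In the authors' deposited table the largest positive change was 9.39, at an exon peak of CARS, the cysteine enzyme (chr11:3038113-3039257, minus strand, fold 8.22). KARS (chr16:75635736-75635991, minus strand) followed at 6.67, AARS (chr16:70253286-70253539, minus strand) at 5.39, and DARS, the aspartate enzyme (chr2:135922896-135943262, minus strand), at 5.29, all in coding sequence and each with 1 motif site. NARS, the asparagine enzyme (chr18:57601760-57602540, minus strand), had a coding peak at 3.50. The input levels of CARS were 10.6, 5.005 and 18.1 FPKM in shNC and 30.6, 26.9 and 0 FPKM in the libraries labelled shNAT10. Those of NARS were 33.1, 33.4 and 10.6 FPKM and 58.4, 10.8 and 0.612 FPKM, and those of DARS 0.295, 33.8 and 6.54 FPKM and 0, 0 and 3.33 FPKM. In none of these genes did the input groups separate.

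GARS, the most abundant synthetase, held the longest peak and the smallest change of the family in the authors' deposited table: 867 nt over 8 blocks of coding sequence (chr7:30599959-30616037, plus strand), fold 9.62 and log2 change 1.12. The most negative peak lay in TARS (chr5:33455634-33458623, plus strand, 5 blocks, fold 16.4, log2 change -5.79), and a second TARS peak (chr5:33466930-33467773) had -2.66. IARS, the isoleucine enzyme, had a coding peak at -3.67 (chr9:92258956-92264955, minus strand); its input level was 6.43, 5.68 and 60.1 FPKM in shNC and 1.07, 24.5 and 45.8 FPKM in the libraries labelled shNAT10, high in 1 of 3 and 2 of 3 libraries.

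WARS, the tryptophan enzyme, had the only 5′ UTR peak and the highest fold of the family in the authors' deposited table (chr14:100369152-100370452, minus strand, fold 33.5, log2 change -5.39), and a 3′ UTR peak at -1.89 (chr14:100333878-100334358). The input level of WARS was 17.4, 12.2 and 11.7 FPKM in shNC and 56.8, 15.4 and 13.3 FPKM in the libraries labelled shNAT10, so shNAT10 replicate 1 alone stood apart. EPRS and YARS each held peaks of opposite sign. EPRS had coding peaks at -3.49 (chr1:219979596-219980759, minus strand) and 4.66 (chr1:220030410-220032465), and YARS had a coding peak at -3.89 (chr1:32791125-32797766, minus strand) and a 3′ UTR peak at 3.94 (chr1:32775776-32776016) with 3 motif sites. In EPRS and YARS, then, the listed sign was not uniform along the transcript. In TARS, WARS and IARS2, the other members with more than 1 peak, the listed changes were all negative.

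All 4 mitochondrial peaks, from 3 genes, were negative in the authors' deposited table, beside 61.7% of all deposited peaks. IARS2 had coding peaks at -3.53 (chr1:220096201-220100644, plus strand) and -4.43 (chr1:220114398-220134651), the second with fold 21.7. NARS2 had a coding peak at -4.22 (chr11:78443672-78465966, minus strand, fold 5.0), and LARS2, the mitochondrial leucine enzyme, an exon peak of a single 300 nt block at -4.29 (chr3:45548193-45548492, plus strand, fold 16.5) with 3 motif sites. The input groups of IARS2 and NARS2 did not overlap and lay in opposite directions, while both had negative peak changes. Neither input difference passed the test, and the IARS2 groups were parted by only 6 fragments against 2. Groups without overlap were found in 2.89% (shNAT10 higher) and 6.72% (shNAT10 lower) of all genes tested. LARS2 was at 0.274, 0.0565 and 19.7 FPKM in shNC and at 0, 0 and 2.17 FPKM in the other group, so its reads came mostly from replicate 3 of each group. The sources used here do not say whether the authors scaled the change for input level.

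Partners of the synthetases gave 0 calls in limma as well. Of the scaffolds, AIMP2 was at 117, 48.7 and 0.159 FPKM in shNC and at 0.783, 67.2 and 63.6 FPKM in the libraries labelled shNAT10, AIMP1 was tested too, and EEF1E1 was listed at 0 in every library. Of 7 elongation factors that carry charged tRNA or serve those that do, 6 were tested, with 2 higher and 4 lower. EEF1A2, which brings charged tRNA to the ribosome, was at 304, 276 and 509 FPKM in shNC and at 807, 905 and 874 FPKM in the libraries labelled shNAT10, groups that did not overlap, with a log2 difference of 1.30 (SE 0.61, limma adjusted p 0.754). EEF1A1, a close paralog, was at 421, 284 and 397 FPKM and at 335, 137 and 547 FPKM, and how reads were split between the paralogs is uncertain. As with EEF1A2, the groups of TUFM did not overlap. TUFM was at 107, 22.3 and 74.9 FPKM in shNC and at 109, 257 and 130 FPKM in the libraries labelled shNAT10. Of all genes tested, 2.89% had all libraries labelled shNAT10 above all shNC libraries. Of 11 genes of tRNA maturation, export and quality control, 4 were tested (2 higher, 2 lower); PTRH2, a peptidyl-tRNA hydrolase, was the most abundant, at 16.6, 74.7 and 68.9 FPKM and at 31.3, 39.8 and 124 FPKM.

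The mitochondrial route to glutaminyl-tRNA, which EARS2 begins and an amidotransferase completes, was thinly covered. Of 4 genes of that amidotransferase and the mitochondrial formyltransferase, 2 were tested and both were lower without a call; GATC, an amidotransferase subunit, was at 5.15, 39.0 and 7.06 FPKM in shNC and at 15.3, 0.453 and 2.45 FPKM in the other group. Amino acid transporters had 11 of 12 genes tested, 3 higher and 8 lower, with a median log2 difference of -0.54. SLC1A5, a glutamine transporter, was at 77.5, 88.0 and 26.8 FPKM in shNC and at 54.9, 68.3 and 37.1 FPKM in the other group. The amino acid response genes had 13 of 18 tested, 5 higher and 8 lower, with a median of -0.50, close to that of all genes. ATF4 itself was at 248, 125 and 320 FPKM in shNC and at 289, 165 and 76.0 FPKM in the libraries labelled shNAT10, and its groups overlapped. ASNS, asparagine synthetase and a textbook ATF4 target, was listed at 0 in each of the 6 libraries although the authors' deposited table held 1 peak in it. Peaks stood in 5 of the 18 response genes, 4 of the 12 transporters and 2 of the 7 elongation factors. They stood in 1 of the 11 genes of tRNA maturation, export and quality control. The 3 scaffolds and the 4 genes of the amidotransferase and formyltransferase held 0. Of protein-coding genes with a mean of at least 1 FPKM, 19.0% had a peak. The lists were not filtered by level, and these shares were not tested.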

How the data were processed

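The authors deposited FPKM values per gene for 6 input libraries; columns named NC matched shNC by title, and columns named sh were taken as shNAT10 by elimination. The library denominator of the FPKM was not stated. The deposited peak table gives, per the file headers, a ratio (enrichment fold), a peak p-value, log10 p and FDR, a log2 fold change and a count of motif sites per peak. Per the submitters' processing notes, cutadapt 2.5, HISAT2 2.1.0 and HOMER 4.10.4 were used, with no role named, and both GRCh38 and GRCm38 are listed. Peaks were read as GRCh38, since 19 of 19 lay in their RefSeq gene there. The sources used here name no peak caller, counter, strand setting or pooling.

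Whole fragments were recovered from FPKM with RefSeq lengths of 13 mitochondrial mRNAs. Each of 15014 genes above 0 was then whole to within 1e-06 fragments, a tolerance that grew in proportion to the count at high counts. Gene lengths were fitted for that as the smallest that made all values of a gene whole, so its fragments are the smallest counts that fit. The fragments served for depth and for voom. Levels and tests used FPKM: limma 3.58.1 in R 4.3.3 on log2(FPKM + 1), trend in eBayes, 3 against 3 libraries, tested first on simulated data. The 37 symbols matched RefSeq, 18 under a symbol ending in 1. Promoters came from RefSeq; peak and protein sequences were not used here. Values in every library are given for the 6 cytosolic and 4 mitochondrial genes highest by mean (1 of the latter counts in totals but is not reported here), genes with a peak and genes whose groups did not overlap; MARS, RARS, HARS, HARS2, FARSA and FARSB were added after their values were seen, as was the subset of the multisynthetase complex. From each other list the most abundant gene is named, and ASNS, EEF1A1 and TUFM were added. Members and lists were chosen with earlier results of these data known. Same-numbered samples did not deviate together (correlations 0.0012, -0.0214 and 0.0146). These values show no pairing by number but cannot exclude it, given the spread between replicates. The main test had no term for replicate number. Alternatives were pseudocounts of 0.1 and 0.01, other filters, scalings, a replicate block, robust eBayes, voom and each library left out.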

Additional observations from a re-analysis of the deposited data

How the results depend on the processing

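No synthetase was called under any of the 15 alternatives of the limma test, where the lowest adjusted p was 0.447, nor at an adjusted p under 0.1. Genes called in all moved from 20 to 7 with a pseudocount of 0.01, 0 without the filter on low values (340 at an unadjusted p under 0.05), 10 at a mean of at least 5 FPKM, 86 with voom on recovered fragments (an alternative added once the data had been seen; 3 synthetases, IARS2, NARS2 and MARS, had an unadjusted p under 0.05, as did IARS2 without shNC replicate 2 and SARS and MARS without shNAT10 replicate 2), and 1 to 34 with a library left out: 1 without each shNC library in turn, and 12, 34 and 23 without shNAT10 replicates 1, 2 and 3. With the replicate block 21 genes and 0 synthetases were called.

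The cytosolic median log2 difference of -0.35 moved to -1.03 and -1.52 with pseudocounts of 0.1 and 0.01, to -0.96 with voom, and ran from -0.996 to -0.37 with a library left out; its gap to all genes, 0.13, became -0.25, -0.47 and -0.58 under the pseudocounts and voom, and -0.40 to 0.21 with a library left out. The mitochondrial median moved to -1.08 and -2.05 with pseudocounts of 0.1 and 0.01, and ran from -1.21 without shNAT10 replicate 1 to 0.55 without shNAT10 replicate 2. The cytosolic excess in level became 6.89 with a pseudocount of 0.1 and 2.72 as a mean over genes, and stayed above 0 in 6 of 6 libraries in each. Of 280 values of single genes, 13 turned sign, none of them called: under quantile normalization CARS (0.28), EARS2 (0.038) and IARS (0.62). With a library left out, CARS ran from -1.06 to 1.43, EARS2 from -1.95 to 1.06, GARS from -0.96 to 0.81, IARS from -0.99 to 1.26, NARS from -2.45 to 0.15 and TARS from -0.073 to 0.85; with the sign kept, SARS ran from -3.07 to -1.28 and RARS2 from -3.52 to -0.93. The cause was not tested. The mitochondrial genes had a median of 127 fragments per gene over 6 libraries, and the part of depth was not tested.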

Other observations

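Transcripts named after synthetase genes were partly abundant. CARS-AS1, annotated antisense to CARS, was at 39.0, 63.8 and 25.7 FPKM in shNC and at 73.5, 0 and 22.1 FPKM in the libraries labelled shNAT10, above CARS itself in 5 of 6 libraries. FARSA-AS1 was at 0, 149 and 33.9 FPKM and at 0, 36.0 and 3.46 FPKM, and DARS-AS1 at 1.58, 21.9 and 2.31 FPKM and at 7.89, 31.0 and 0.381 FPKM. No source used here says whether counting used strand, so reads of a gene and its antisense partner cannot be told apart. All 14 pseudogenes named after synthetases were listed at 0. TARSL2, a cytosolic relative of TARS that the naming rule leaves out, was at 0, 9.10 and 0 FPKM in shNC and at 1.41, 0 and 2.19 FPKM in the other group.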
